A study of Drosophila melanogaster with 2 samples.

Results

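The digestive trypsins and the Jonah serine proteases of Drosophila melanogaster are described here by 28 probe sets, 1 for each of 28 genes, out of 10844 genes read by a probe set with a single gene symbol and 14010 probe sets in all. A probe set belongs to the group when its only gene symbol in the platform annotation starts with Jon, ends in Try, or is yip7, Ser6, Ser8, Ser12 or Send1. This gave 14 Jonah genes, 9 trypsin genes and the 5 single serine protease genes just listed. The series held 2 Affymetrix arrays of the first Drosophila genome chip, 1 with RNA labelled as that of yw embryos, mutant for the pigment genes yellow (body) and white (eye), and 1 with RNA labelled as that of embryos homozygous for a mutation in mbf1. Both samples were labelled as embryos grown on apple juice plates at 25 °C to an age of 16 h. The labels give neither the mbf1 allele, nor the number of embryos pooled, nor whether the mbf1 line shares the yw background. The study asked which genes depend on MBF1, a coactivator that bridges transcription factors and the TATA-binding protein.

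Trypsins are serine endopeptidases that cut proteins after lysine or arginine, and in insects they are made as inactive precursors by midgut cells and secreted into the gut lumen. The Jonah genes encode related secreted serine endopeptidases that are transcribed in the midgut of feeding larvae and adults. The genes of both families lie in tandem clusters of close copies, so a probe set of 1 copy can also bind transcripts of another.

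With 1 array a genotype there was no replicate and no test, so each difference below holds for this pair of arrays. The genotype was checked by the mbf1 transcript, whose signals were 478.7 (yw) and 22.1 (mbf1), or 21.7-fold lower. Signals are MAS5 intensities after the mbf1 array was brought to the yw array by the median ratio of its brighter probe sets, and values up to 17.7, the 40th percentile of both arrays, count as under the floor. The embryo label was set against marker lists. All 11 accessory gland genes and all 10 testis genes with a probe set, which mark adult males, were above the floor on both arrays, with median signals of 395 and 415 for the first list and 1401 and 1360 for the second. Of all 12443 named probe sets, 6943 were above the floor on both arrays. Of 11 early zygotic genes, 5 were above it in yw and 7 in the mbf1 mutant. These counts are near the share of all probe sets and are not used on the label. All 5 adult eye genes with a probe set were above the floor on both arrays as well. They ranged from Arr2, an arrestin of photoreceptors, at 1297 and 1186 to inaC at 24.0 and 22.9. The yolk protein genes, which mark adult females, were low, with Yp1 under the floor, Yp2 at 25.4 and 26.3, and Yp3 at 31.1 and 36.0. The levels of the accessory gland, testis and eye lists go against the embryo label on both arrays alike, so the samples are called by genotype here.

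The protease genes were read clearly on both arrays, and most had slightly lower signals on the mbf1 array than on the other when the bulk of genes was set equal, and higher ones in the values as deposited. Of the 28 members 24 were above the floor on both arrays and 4 were under it on both. Of the 24 measured members 20 had a log2 ratio of mbf1 over yw below 0, against 50.5% of all 8127 measured named probe sets, although without scaling between the arrays only 6 of the 24 were below 0, against 12.2% of all. The median log2 ratio was -0.36, with a range from -0.88 to 0.90, against -0.0044 over all measured named probe sets, and it turned to 0.20 for the same members in the values as deposited, where all named probe sets had a median of 0.55. No member was at least 2-fold higher or 2-fold lower, where the background was 1.49% and 1.67% of the measured named probe sets. At a 1.5-fold threshold 4 members were lower and 2 higher, against 7.86% and 7.36% of all. RNA of whole animals cannot tell fewer midgut cells from less RNA per cell.

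**Figure D1:**
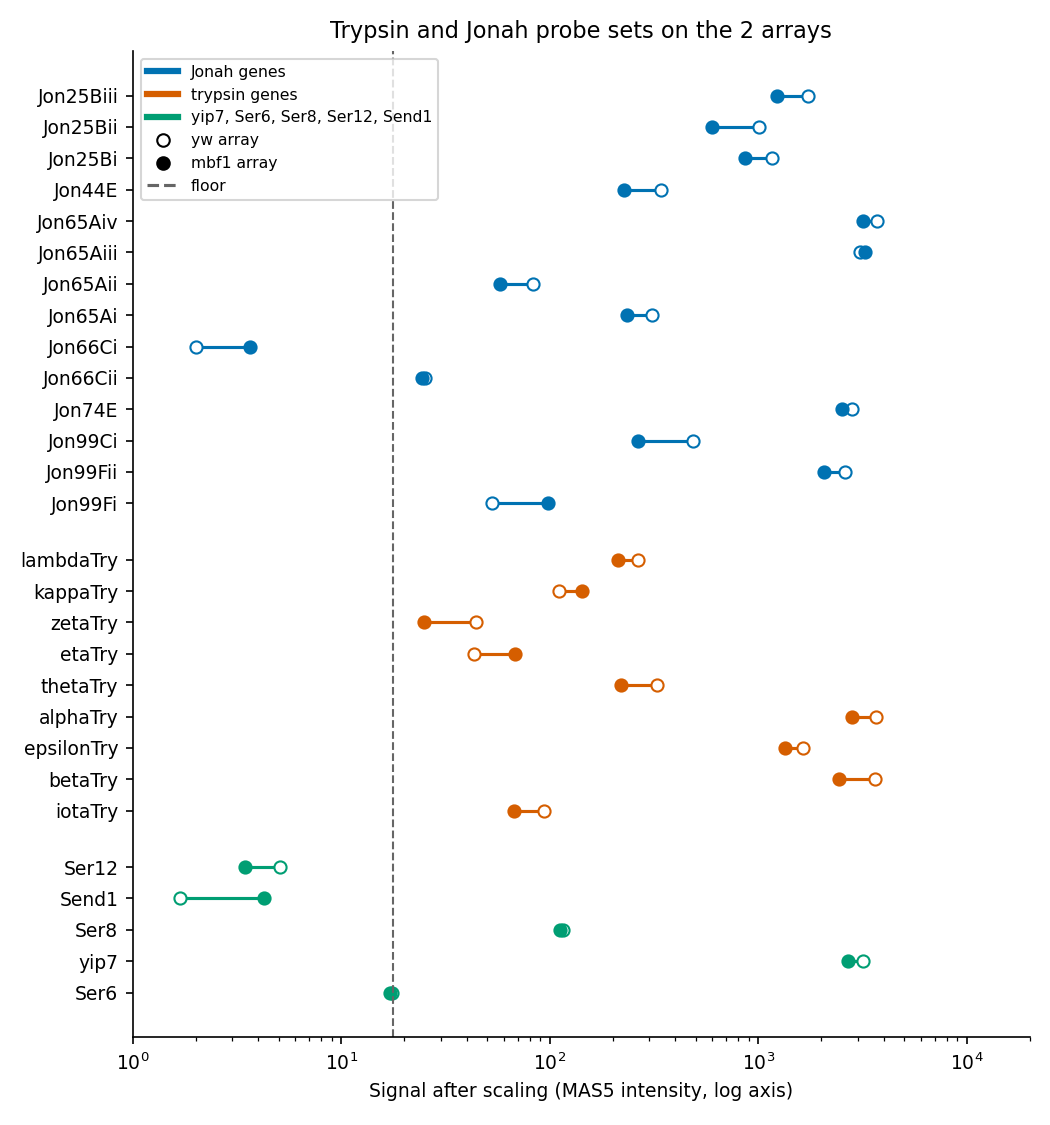
Signal of each of the 28 probe sets after scaling, on a log axis, with the yw array as open circles, the mbf1 array as filled circles, and the floor of 17.7 as a dashed line. The filled circle lies to the left of the open one for 20 of the 24 members above the floor, and Jon99Fi, etaTry, kappaTry and Jon65Aiii are the exceptions. Without scaling it would lie to the left for 6.

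No replicate error exists for these ratios. The nearest measure of error is the disagreement between probe sets that read 1 gene, which gave an SD of 0.38 for a single log2 ratio over 260 genes and 0.31 over the 14 of them with signals of at least 200 on both arrays. Over the 2 genes with signals of at least 1000 on both arrays the SD was 0.13. This measure leaves out all error between arrays and samples. In 14 of the 24 members the ratio after the main scaling was larger in size than 0.38, with 12 of them below 0 and 2 above. The share of all measured named probe sets past 0.38 was not computed, so this count has no background beside it. The ratios had an SD of 0.43 over the 24 members and of 0.45 over all measured named probe sets.

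Among the Jonah genes, 13 of 14 were measured and 11 had ratios below 0, with a median of -0.39, which became 0.16 without scaling. The 3 genes at 25B on chromosome arm 2L, which follow one another with no other protein-coding gene between them, all had ratios below 0 after scaling. Jon25Bi had signals of 1165 and 864, a ratio of -0.43. For Jon25Bii the signals were 1009 and 598, and its ratio of -0.75 was among the lowest of the family. Jon25Biii was at 1723 and 1221, a ratio of -0.50. In the deposited values Jon25Bii was still below 0 at -0.20, while Jon25Bi at 0.12 and Jon25Biii at 0.055 were above it. The distances between the 3 genes are the same with and without the scaling.

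The locus at 65A on arm 3L holds Jon65Ai, Jon65Aii, Jon65Aiii and Jon65Aiv beside yip7, with 1 other protein-coding gene among the 5. Jon65Aiii, with signals of 3060 and 3231, was the only one of the 5 with a ratio above 0 after scaling, at 0.079. Jon65Aiv, with signals of 3698 and 3175, had a ratio of -0.22. Both were bright, and their ratios were small beside the SD of 0.38 between probe sets of 1 gene. The ratio of Jon65Aiv was larger in size than the SD of 0.13 over the 2 genes with signals of at least 1000 on both arrays. Jon65Ai was lower by 1.31-fold, with 307 and 235. The signals of Jon65Aii were 83.4 and 57.4, a ratio of -0.54. Its lower value on the mbf1 array depended on the scaling, since the deposited intensities of Jon65Aii differed by only 0.013 on the log2 scale.

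The remaining Jonah genes lie alone or in pairs. Jon44E, on arm 2R, had signals of 340.0 and 226, a ratio of -0.59. Jon74E, on arm 3L, was at 2798 and 2513, a ratio of -0.16. These differ in that Jon44E stayed below 0 under each of the 5 scalings tried and Jon74E did not. At 66C, Jon66Cii had signals of 25.1 and 24.4, just over the floor and nearly equal, and its neighbour Jon66Ci was under the floor at 2.01 and 3.65, so no ratio is given for it.

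The lowest and the highest ratio of all 24 members belonged to Jonah genes on arm 3R. Jon99Ci had signals of 487 and 265, a ratio of -0.88 or 1.84-fold lower, and 2.8% of the 500 named probe sets nearest to it in signal had a lower ratio. It was also lower as deposited, by 0.33 on the log2 scale. Jon99Fi had signals of 52.5 and 98.1, a ratio of 0.90, and 2.0% of its 500 nearest probe sets had a higher one. Its neighbour Jon99Fii, with no protein-coding gene between them, was at 2594 and 2071, a ratio of -0.32. So the neighbours at 99F went opposite ways after scaling, while both were higher on the mbf1 array as deposited, at 1.45 for Jon99Fi and 0.23 for Jon99Fii. The probe set of Jon99Fii carries the suffix that Affymetrix gives to probe sets shared by a gene family, so which copies it read is uncertain.

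A further 3 probe sets, annotated with 2 Jonah genes each, fall outside the rule because they do not read a single gene. The first had signals of 4930 in yw and 3658 in mbf1, the second 1723 and 1367, and the third 5117 and 4102. The ratios were -0.43, -0.33 and -0.32, and without scaling 0.12, 0.22 and 0.23. These 3 probe sets lay within the range of the Jonah members and close to one another. They read the same gene pair, so their ratios are not independent. The third held the highest deposited value on each array, 5117 and 6010, and whether the brightest spots were saturated was not tested.

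All 9 trypsin genes were measured, 7 with a ratio below 0, and their median of -0.39 became 0.17 without scaling. They lie on arm 2R within 1 cluster, in the order lambdaTry, kappaTry, zetaTry, etaTry, thetaTry, alphaTry, epsilonTry, betaTry and iotaTry, with 5 other protein-coding genes before iotaTry and none between the rest in the gene table used. The trypsin genes gammaTry and deltaTry are among those 5, were read by no probe set under the rule, and are not analysed here. alphaTry and betaTry, close copies of the major trypsin gene, were bright. alphaTry had signals of 3667 and 2808, a ratio of -0.39. For betaTry they were 3612 and 2432, a ratio of -0.57. epsilonTry was at 1638 and 1344, or 1.22-fold lower. Probe sets of such close copies can share transcripts, so the ratios of alphaTry and betaTry may not be independent, which was not tested. Neither carries a suffix for shared sequence.

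The trypsin genes at the start of the cluster differed in sign from one neighbour to the next after scaling, while as deposited lambdaTry at 0.23 and kappaTry at 0.92 had the same sign. lambdaTry had signals of 264 and 212, a ratio of -0.32. kappaTry, the next gene, was at 110.0 and 142, a ratio of 0.37. zetaTry was at 44.2 and 24.8, a ratio of -0.83 or 1.78-fold lower, the lowest of the family. Then followed etaTry with 43.3 and 67.7, a ratio of 0.65 and the highest of the family. thetaTry, beside etaTry, was at 327 and 220.0, a ratio of -0.57. At the far end of the cluster iotaTry was at 94.0 and 66.9, a ratio of -0.49. zetaTry and etaTry had low signals, and among the 500 named probe sets nearest to each in signal 4.6% had a lower ratio than zetaTry and 5.8% a higher one than etaTry. The ratio of zetaTry shrank to -0.31 when the floor was raised to the 60th percentile.

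Of the 5 single genes only yip7 and Ser8 were measured. yip7, named for binding the protein Yippee, had signals of 3187 and 2678, a ratio of -0.25. Ser8 was at 116 and 111, a ratio of -0.058. Both were higher on the mbf1 array in the deposited values, by 0.30 for yip7 and 0.49 for Ser8. Ser6, on the X chromosome, was just under the floor with 17.5 and 17.1. Send1, a protease gene of the spermatheca, the sperm store of adult females, was at 1.69 and 4.26, and Ser12, on the same arm 2L with 2 protein-coding genes between them, was at 5.06 and 3.46. No ratio is given for these 3.

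The ratios of the brightest members were close to those of other bright probe sets. With signals of at least 1000 on both arrays there were 9 members, with a median ratio of -0.29 and 8 below 0, and 161 named probe sets in all, with a median of -0.19 and 77.6% below 0. Where the lower of both signals lay from 200 to 1000 there were 7 members, Jon25Bi, Jon25Bii, Jon44E, Jon65Ai, Jon99Ci, lambdaTry and thetaTry, all below 0 with a median of -0.57, against a median of 0.010 and 47.7% below 0 over 667 named probe sets. The remaining 8 members, under 200 on an array, had a median of -0.051 with 5 below 0, against -0.0010 and 50.1% over 7299 named probe sets. In the deposited values the medians of these 3 groups of members were 0.27, -0.019 and 0.50. The limits of 200 and 1000 were chosen after the values were seen.

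**Figure D2:**
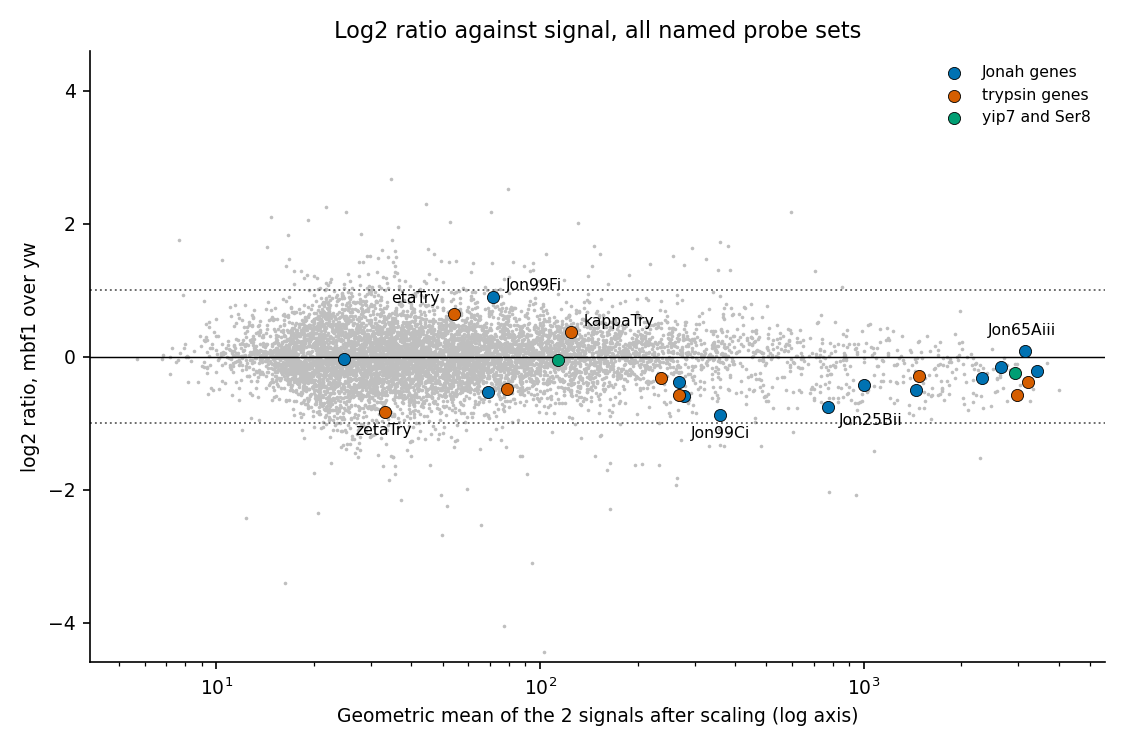
Log2 ratio of mbf1 over yw against the geometric mean of both signals, on a log axis, for the 8127 measured named probe sets in grey and the 24 measured members in colour. Dotted lines mark 2-fold, which no member passed. At signals of at least 1000 the grey points also lie mostly below 0, with a median of -0.19, while without scaling their median is 0.36.

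The sign of many members depended on whether and how the arrays were brought to one level. Across the main scaling, quantile normalization, loess, scaling on the hybridization controls and no scaling, 6 members stayed below 0, namely Jon25Bii, Jon44E, Jon99Ci, betaTry, thetaTry and zetaTry. The 4 members Jon65Aiii, Jon99Fi, etaTry and kappaTry stayed above 0. The other 14 lay on one side in some settings and on the other, or at 0, in others, and 9 of them changed side only without scaling, which shifts all genes alike. Relative to the median of all named probe sets in the same setting, the median of the members was -0.35 in the main setting and -0.27 without scaling. It was -0.19 after quantile normalization, -0.24 after loess and -0.30 on the hybridization controls. The floor was set anew in each setting, and without scaling and on the hybridization controls 25 members were measured, Ser6 among them. A shift of all genes alike does not change this difference for a fixed set of probe sets. For the 24 members and 8127 probe sets of the main setting, the deposited medians were 0.20 and 0.55. Among the 6, the deposited difference was small for Jon44E at -0.037, betaTry at -0.020 and thetaTry at -0.019, and larger for Jon99Ci at -0.33 and zetaTry at -0.28. Quantile normalization put 17 of the 24 below 0, and loess 18. The members at the ends, Jon99Ci and Jon99Fi, stood at -0.90 and 0.90 after quantile normalization and at -0.87 and 0.89 after loess.

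**Figure D3:**
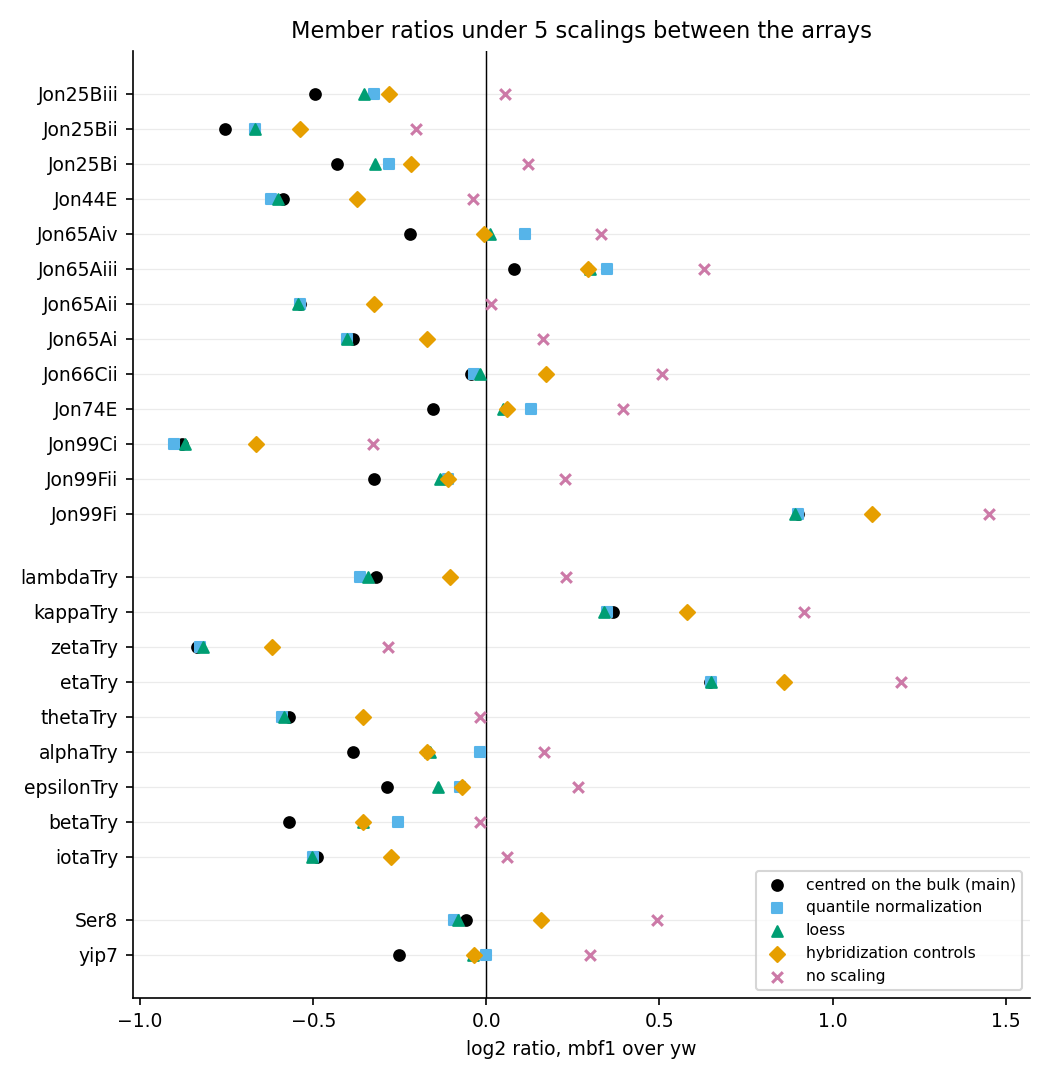
Log2 ratio of mbf1 over yw for the 24 measured members under 5 scalings of the arrays, 1 symbol each. Jon99Ci, zetaTry and Jon25Bii lie left of 0 and Jon99Fi, etaTry and kappaTry right of 0 under all 5, whereas most of the others cross 0 when no scaling is used.

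Of 66 measured genes in 6 lists of other proteases, 2 were at least 2-fold higher and 0 at least 2-fold lower after the main scaling, against 1.49% and 1.67% of all, so these counts are near the background. Of 25 measured genes of the trypsin fold family outside the rule, 17 had ratios below 0, with a median of -0.28, and 1 was at least 2-fold higher, CG17571, with signals of 135 and 355, a ratio of 1.39. This median became 0.26 without scaling and -0.027 on the hybridization controls. The 5 measured astacin metalloprotease genes had a median of -0.27 (0.28 without scaling), and CG15255 among them was at 55.8 and 143, or 2.56-fold higher. Zinc carboxypeptidases, which trim single residues from the end of a peptide, had a median of -0.079 over 12 genes, 6 on either side of 0 (0.38 without scaling). Membrane aminopeptidases were at -0.075 over 8 genes (0.48 without scaling), and cathepsins with aspartic proteases at -0.072 over 8 (0.48 without scaling). Serine proteases of the blood and of development, which are not digestive, had a median of -0.24 over 8 genes with 6 below 0 (0.31 without scaling).

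Markers of midgut enterocytes, the cells that absorb nutrients and secrete digestive enzymes, had ratios above 0 where they were not members. Of 5 such markers with a probe set, 4 were measured. All 4 had ratios above 0 under each scaling, with a median of 0.55 under the main one. Of all measured named probe sets, 50.5% were below 0 under the main scaling and 12.2% as deposited, so a ratio above 0 is common without scaling. On the hybridization controls the median of all named probe sets was 0.19, and that of the 4 was 0.76. The summed signal of the 5 was 358 in yw and 503 in mbf1. The 4 were Muc68D, a gut mucin, at 255 and 358, and mex1 at 54.1 and 71.1. With them were nub, the enterocyte transcription factor Pdm1, at 22.5 and 35.1, and alpha4GT1 at 20.0 and 30.4. Both were near the floor of 17.7 in yw. lambdaTry and iotaTry, chosen as enterocyte markers too, were left out of this list as members. Their ratios were -0.32 and -0.49, or 0.23 and 0.061 as deposited. Among 12 genes listed as gut regulators 7 were measured, nub and pros among them, and pros is in the enteroendocrine list too. Under the main scaling their median was 0.38, with 6 above 0 and 1 below, against 50.5% of all below. The median is the ratio of srp, whose yw signal of 13.6 was under the floor and was raised to it. Of those above 0, pros and sug were close to it at 0.018 and 0.084. GATAe, the GATA factor of the endoderm, was under the floor at 4.30 and 10.7. Enteroendocrine markers had a median of -0.11 over 5 genes, which turned to 0.44 without scaling and 0.11 on the hybridization controls. Muscle markers were lower, with a median of -0.48 and 5 of 6 below 0 (0.069 without scaling), and their summed signals were 9587 and 6465. In the list of tracheal and cuticle genes 3 of 6 measured genes were at least 2-fold lower, Acp65Aa at -4.05, Cpr49Ae at -1.93 and serp at -1.11, against 1.67% of all, while Ccp84Ad was at 0.48. Without scaling 2 genes of this list were at least 2-fold lower and 1 higher, and on the hybridization controls 2 were lower. Of 3 measured fat body genes, the storage protein gene Lsp2 was 2.53-fold lower, a difference of under 2-fold without scaling, while Fbp1 was at -0.12 and apolpp at 0.52. Accessory gland and testis genes had medians of 0.065 and -0.043. The part of other tissues in the protease ratios was not tested.

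**Figure D4:**
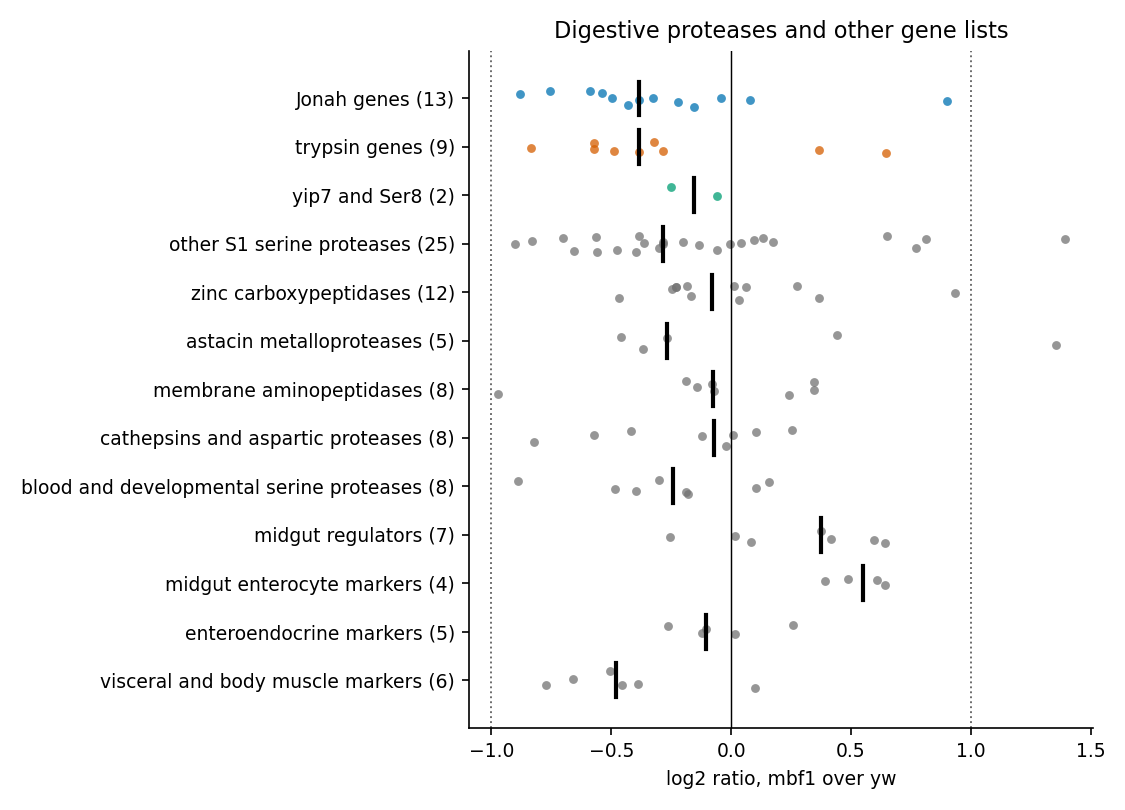
Log2 ratio of mbf1 over yw for each measured gene of the protease families and of 10 other lists, with the number of genes in brackets and the median as a black bar. Jonah and trypsin medians lie at -0.39, with enterocyte markers at 0.55 and muscle markers at -0.48, and without scaling these become 0.16, 0.17, 1.05 and 0.069. Points are spread vertically at random within a list, and dotted lines mark 2-fold. lambdaTry and iotaTry are shown with the trypsin genes and not with the enterocyte markers.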

How the data were processed

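RNA of 2 genotypes was measured on 1 array each. The deposited intensities are MAS5 signals on a linear scale, 1 per probe set, per the submitters' processing notes, and the sources used here give no version and no target level. Median intensities were 25.4 (yw) and 36.9 (mbf1). The number of arrays limits the precision. Of 14010 probe sets 44 were controls, 327 had several symbols and 1239 none, and symbols were updated by gene identifier for 12394 through a RefSeq gene table of Release 6, which changed 0. That table also gave chromosome arms and gene order, and since the sources name no build, no coordinates are given. A cluster joins members with at most 10 other protein-coding genes between them.

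The mbf1 array was divided by 1.47, or 0.55 on the log2 scale, the median ratio over probe sets brighter than their array's median on both arrays. Values under the floor were raised to it, and ratios are log2 differences of the scaled intensities. Ratios given as deposited use the deposited intensities, with no scaling and no floor. A probe set was measured when above the floor on at least 1 array. For lists, the probe set with the highest mean signal stood for a gene, and members were left out of the other lists. Every member is named. From each other list, up to 4 genes at least 2-fold apart are named with mbf1. Muc68D, mex1, nub, alpha4GT1, GATAe, srp, pros, sug, Arr2, inaC, Yp1, Yp2, Yp3, Ccp84Ad, Fbp1 and apolpp were named after their values were seen. Members and lists were chosen with earlier results of these data known. Python 3.11.15, pandas 2.3.3 and statsmodels 0.14.6 were used, and the procedure was tested on simulated data. Alternatives were no scaling, quantile normalization, loess with a span of 0.3, scaling on 9 hybridization controls, other floors, a pseudocount, subsets of probe sets and other thresholds.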

Additional observations from a re-analysis of the deposited data

How the results depend on the processing

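Leaving out the scaling, which shifts all genes alike, changed the most signs. Without scaling, with the floor set on the unscaled values so that Ser6 was also measured, the median ratio of all measured named probe sets was 0.49, and the medians turned to 0.23 for the members, 0.16 for the Jonah genes, 0.17 for the trypsin genes and 0.30 for the single genes, with 6 of 25 members below 0 and 2 at least 2-fold higher, Jon99Fi and etaTry. With scaling on the hybridization controls, all named probe sets had a median of 0.19 and Ser6 was measured too. The median of the single genes turned to 0.053, which is the ratio of Ser6. In this setting 1 member, Jon99Fi, was at least 2-fold higher, and the median of the members shrank from -0.36 to -0.11. After quantile normalization and loess the members' median was -0.18 and -0.24. A threshold of 1.5-fold gave 2 higher and 4 lower members, and one of 3-fold gave 0 and 0. Other floors, the pseudocount, genes above the floor on both arrays, 1 probe set per gene and leaving out the suffixed probe set kept the members' median between -0.39 and -0.32. Of 238 single ratios under alternatives 117 equalled the main value, since most of these settings cannot change them. Of the 121 that differed, 96 moved by less than the robust SD of the 500 probe sets nearest in signal, and 24 of the other 25 came from leaving out the scaling. No paired analysis was possible because each genotype had 1 array. Ser6, Ser12, Send1 and Jon66Ci were under the floor in the main setting and have no ratio there.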
